A study of Mus musculus with 6 samples.

Results

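The genes described here are 10 messenger RNAs of the meiotic chromosome axis, namely the cohesin subunits Stag3, Smc1b, Rec8 and Rad21l and the synaptonemal complex and axis genes Sycp1, Sycp2, Sycp3, Syce1, Syce2 and Hormad1. They were chosen by symbol, and each symbol matched 1 of the 57010 gene IDs in the deposited count table. The counts come from RNA that was recovered with immunoprecipitated PNMA4 (the product of Moap1, a capsid gene derived from a retrotransposon) out of a dense fraction of mouse testis lysate. There are 3 libraries from wild-type C57BL/6J testes and 3 control libraries from testes lacking PNMA4, each made from a lysate of 8 testes collected at 3 months of age. Replicates 1 and 2 of the control group are Pnma4 KO, and replicate 3 carries the Pnma1, Pnma4 DKO (double knockout) genotype, so all 3 controls lack PNMA4 and 1 also lacks PNMA1. How the alleles were made is not given in the sources used here, and each lysate pools the testes of several mice. Levels given below are abundances in the precipitated material, since RNA from before that step was not analysed here. In such bulk samples, fewer cells of a type and less RNA per cell cannot be told apart.

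Cohesin is a ring-shaped complex that holds sister chromatids together. In germ cells entering meiosis, SMC1B, STAG3 and the kleisins REC8 and RAD21L take the place of the subunits that somatic cells use, SMC1A, STAG1 or STAG2, and RAD21. The axial elements that form on this cohesin core contain SYCP2, SYCP3 and HORMAD1. Paired axes are then joined by the synaptonemal complex, whose transverse filaments are made of SYCP1 and whose central element contains SYCE1 and SYCE2. In mouse testis these genes are expressed mainly in spermatocytes in meiotic prophase.

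No difference between wild-type immunoprecipitates and those lacking PNMA4 passed the test for any of the 10 genes. All 10 passed the filter on low counts, and 0 were called higher or lower (edgeR quasi-likelihood test, Benjamini-Hochberg adjustment over 13413 genes, adjusted p = 1.00 for each). At an unadjusted edgeR p under 0.05 the count was also 0, beside 392 of the 13413 genes. DESeq2 and limma-voom called 0 of the 10 members after adjustment. In limma-voom 1 member was under 0.05 unadjusted, beside 714 of the 13413 genes. Over all 13413 tested genes, 8 were called, or 0.0596%, so a count of 0 among 10 is near the background. The log2 fold change of wild type over lacking PNMA4 was positive for 6 members and negative for 4, between −0.37 for Rad21l and 0.27 for Sycp1. Its median over the members was 0.12, against 0.01 over all tested genes. Leaving out 1 wild-type library gave a member median of 0.05 (replicate 1), 0.15 (replicate 2) and −0.02 (replicate 3). It was 0.02 without Pnma4 KO replicate 1, 0.24 without Pnma4 KO replicate 2 and 0.08 without the double knockout. The −0.02 and 0.24 are over 9 members, as Rad21l was not tested in those 2 fits. In 0 of the 10 members did the wild-type libraries all lie above the others, which 3.28% of tested genes did, and in 0 did they all lie below, which 3.41% did. For 9 members, all but Rad21l, the 95% interval on the log2 scale stayed inside −1 to 1, as it did for 71.1% of tested genes. A 2-fold difference relative to the bulk of genes is therefore outside the interval for these 9.

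**Figure D1:**
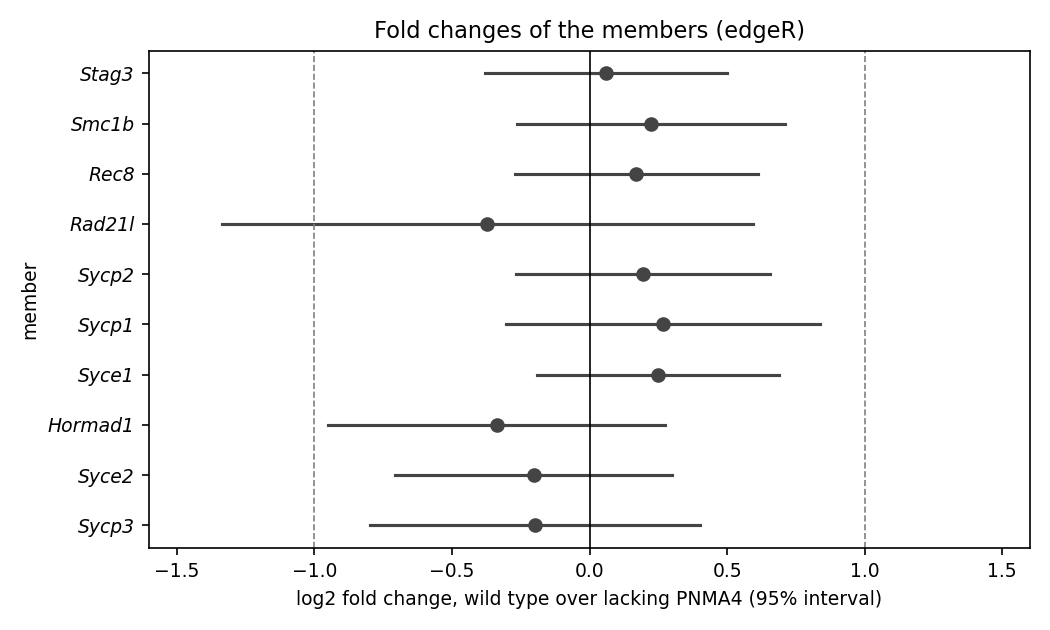
Log2 fold change of wild type over lacking PNMA4 for each member (point) with its 95% interval from edgeR (line), 3 libraries per group, with dashed lines at a 2-fold difference in either direction. All 10 intervals include 0, and that of Rad21l alone reaches past a dashed line.

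Stag3 (ENSMUSG00000036928, chr5:138272514-138312397, in RefSeq coordinates of GRCm38.p6, as for all members) encodes the cohesin subunit of the stromal antigen type that is specific to meiosis. It stood at 388, 464 and 316 CPM (counts per 1000000 of TMM-scaled library size, the unit of all levels below) in wild-type replicates 1 to 3, against 386.5, 365 and 368 CPM in Pnma4 KO replicates 1 and 2 and the double knockout. The wild-type libraries enclosed all 3 others, which lay within a 1.06-fold range. The log2 fold change came to 0.06 (standard error 0.21, 95% interval −0.38 to 0.50), which is 0.769 to 1.41 as a fold change. With 1 library left out it lay between −0.08 (without wild-type replicate 2) and 0.20 (without wild-type replicate 3).

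Smc1b (ENSMUSG00000022432, chr15:85064689-85131957) encodes the meiotic partner of SMC3 in the cohesin ring. Its level was 249, 216 and 361 CPM in the wild-type libraries, against 168.5, 292 and 246.5 CPM without PNMA4. The highest value was wild-type replicate 3 and the lowest was replicate 1 lacking PNMA4, and the groups overlapped. The log2 fold change was 0.22 (standard error 0.24, interval −0.26 to 0.71). It was −0.01 without wild-type replicate 3, 0.03 without Pnma4 KO replicate 1 and 0.41 without Pnma4 KO replicate 2.

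The kleisins close the cohesin ring, and Rec8 (ENSMUSG00000002324, chr14:55618002-55625395) and Rad21l (ENSMUSG00000074704, chr2:151644366-151670622) encode the meiotic ones. Rec8 stood at 42.6, 36.2 and 31.2 CPM in the wild-type libraries, against 31.4, 36.0 and 29.4 CPM without PNMA4. The groups overlapped, and wild-type replicate 1 alone stood above the range of the other 5 libraries. This gave a log2 fold change of 0.17 (standard error 0.21), which was 0.05 without wild-type replicate 1 and 0.28 without wild-type replicate 3. Reads of Rad21l numbered 5, 10 and 17 in the wild-type libraries, against 5, 16 and 9 in those without PNMA4, or 1.74 ± 0.760 CPM in wild type and 2.29 ± 0.711 CPM where PNMA4 was lacking (SD, n = 3 each). The log2 fold change of −0.37 became −0.14 without wild-type replicate 2 and −0.54 without Pnma4 KO replicate 1. With so few reads its interval ran from −1.34 to 0.59, and a fold change of less than 0.396 or more than 1.51 is what these counts place outside it. Summed over the 4 cohesin members, the level was 703 ± 19.3 CPM in the wild-type libraries, against 644 ± 53.7 CPM in libraries lacking PNMA4 (SD, n = 3 each; two-sided exact permutation p = 0.2, where 0.1 is the smallest possible with 3 against 3 libraries).

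Sycp1 (ENSMUSG00000027855, chr3:102818499-102936100), the transverse filament gene, stood at 149, 111 and 267 CPM in the wild-type libraries, against 89.5, 179 and 169 CPM in the group lacking PNMA4. The levels spread widely within each group, 2.40-fold in wild type and 2.00-fold without PNMA4. The log2 fold change of 0.27 had a standard error of 0.28 and ran between −0.16 (without wild-type replicate 3) and 0.52 (without wild-type replicate 2) with 1 library left out. Its central element partners, Syce1 (ENSMUSG00000025480, chr7:140777229-140787854) and Syce2 (ENSMUSG00000003824, chr8:84872111-84887446), differed less between libraries. Syce1 stood at 82.0, 58.8 and 53.3 CPM in the wild-type libraries, against 47.9, 57.9 and 56.5 CPM without PNMA4, with wild-type replicate 1 above the rest. Syce2 levels were 23.1, 14.8 and 21.2 CPM among the wild-type libraries and 20.6, 27.3 and 18.7 CPM in the group lacking PNMA4. For both genes the groups overlapped, and the log2 fold change was 0.25 for Syce1 (standard error 0.21) and −0.20 for Syce2 (0.24). With 1 library left out, the value for Syce1 was as low as 0.04 (without wild-type replicate 1) and as high as 0.38 (without wild-type replicate 3). The value for Syce2 was −0.01 without Pnma4 KO replicate 2, −0.02 without wild-type replicate 2 and −0.33 without wild-type replicate 1.

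The axial element genes are Sycp2 (ENSMUSG00000060445, chr2:178345295-178407776) and Sycp3 (ENSMUSG00000020059, chr10:88459587-88473236), and for both the groups overlapped. Sycp2 stood at 252, 222 and 354 CPM in the wild-type libraries, against 194, 257 and 273 CPM without PNMA4, with a log2 fold change of 0.19 (standard error 0.22) that ran between −0.02 (without wild-type replicate 3) and 0.34 (without wild-type replicate 2) with 1 library left out. Sycp3, whose protein binds SYCP2 along the axis, stood at 17.4, 10.5 and 28.3 CPM in the wild-type libraries, against 19.0, 18.4 and 27.4 CPM without PNMA4. Wild type thus held both the lowest and the highest value of Sycp3, and its log2 fold change was −0.20 (standard error 0.29). It was 0.11 without wild-type replicate 2, −0.01 without the double knockout and −0.65 without wild-type replicate 3.

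Hormad1 (ENSMUSG00000028109, chr3:95559677-95587863), which encodes a HORMA-domain protein of unsynapsed axes, spread most widely within a group. It stood at 13.9, 19.6 and 43.3 CPM in the wild-type libraries, against 24.1, 35.7 and 38.1 CPM without PNMA4. Wild-type replicates 1 and 2 lay below all 3 controls and wild-type replicate 3 above them. This gave a log2 fold change of −0.34 (standard error 0.30). It was −0.07 without wild-type replicate 1, −0.16 without wild-type replicate 2 and −0.94 without wild-type replicate 3. The last had an edgeR adjusted p = 0.28, which did not pass and was the lowest of any member over the alternatives of wild type over lacking PNMA4. Over the 6 synaptonemal and axis members the summed level was 580.5 ± 169.6 CPM in the wild-type libraries, against 518 ± 106.5 CPM in libraries lacking PNMA4 (SD, n = 3 each; two-sided exact permutation p = 0.7).

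**Figure D2:**
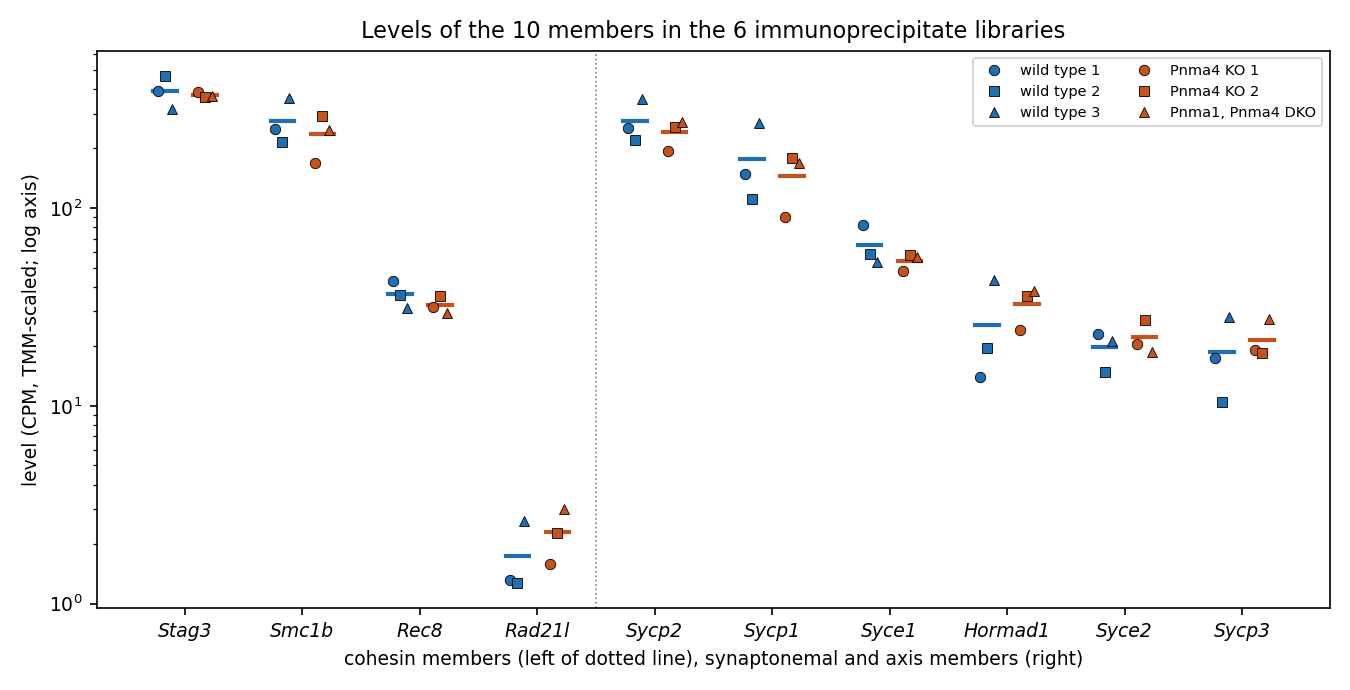
Level of each member in each library (CPM of the TMM-scaled library size, log axis; wild type in blue, lacking PNMA4 in orange, horizontal bars for group means, 3 libraries per group). The blue and orange points overlap for every member, and the blue triangle, wild-type replicate 3, is the highest wild-type point for Smc1b, Rad21l, Sycp1, Sycp2, Sycp3 and Hormad1 and the lowest for Stag3, Rec8 and Syce1. Levels of different genes are not scaled by transcript length, so heights are comparable within a gene only.

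The members did not move as 1 set between libraries. Smc1b, Sycp1 and Sycp2 ranked the libraries alike at both ends, with wild-type replicate 3 highest, wild-type replicate 2 second lowest and replicate 1 lacking PNMA4 lowest. Stag3 ran the other way, with wild-type replicate 2 highest and wild-type replicate 3 lowest. On the log2 scale, wild-type replicate 3 deviated from the mean of the 6 libraries by 0.82 for Sycp1, 0.54 for Smc1b, 0.48 for Sycp2, 0.55 for Sycp3 and 0.67 for Hormad1. In the same library the deviation was −0.26 for Stag3, −0.13 for Rec8 and −0.13 for Syce1. Syce2 was near its mean there, with 0.04, and was highest in replicate 2 lacking PNMA4.

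This spread within groups exceeded counting error for most members. In wild type the variance of the counts around the scaled library sizes was 256 times the Poisson value for Sycp1, 140 times for Smc1b, 118 times for Sycp2, 98.8 times for Stag3 and 52.3 times for Hormad1, and 2.06 times for Rad21l. Without PNMA4 it was 58.5 times for Sycp1 and 65.6 times for Smc1b, 1.34 times for Stag3 and 0.68 times for Rad21l. At a given fold spread this multiple rises with the count, so it does not rank the members by their spread. The width can be set against the 6706 tested genes above the median level of 11.2 CPM, which all members but Rad21l exceeded. Of those genes, 0.492% had a range among the wild-type libraries as wide as that of Hormad1 (3.11-fold), 1.06% as wide as Sycp3 (2.70-fold) and 2.06% as wide as Sycp1. In the group lacking PNMA4 these shares were 18.3% for Hormad1, 25.9% for Sycp3 and 4.85% for Sycp1. For Stag3 the share was 44.7% in wild type, and 97.2% were as wide as Stag3 in the group lacking PNMA4. Whether the spread of a member differs between the groups was not tested.

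**Figure D3:**
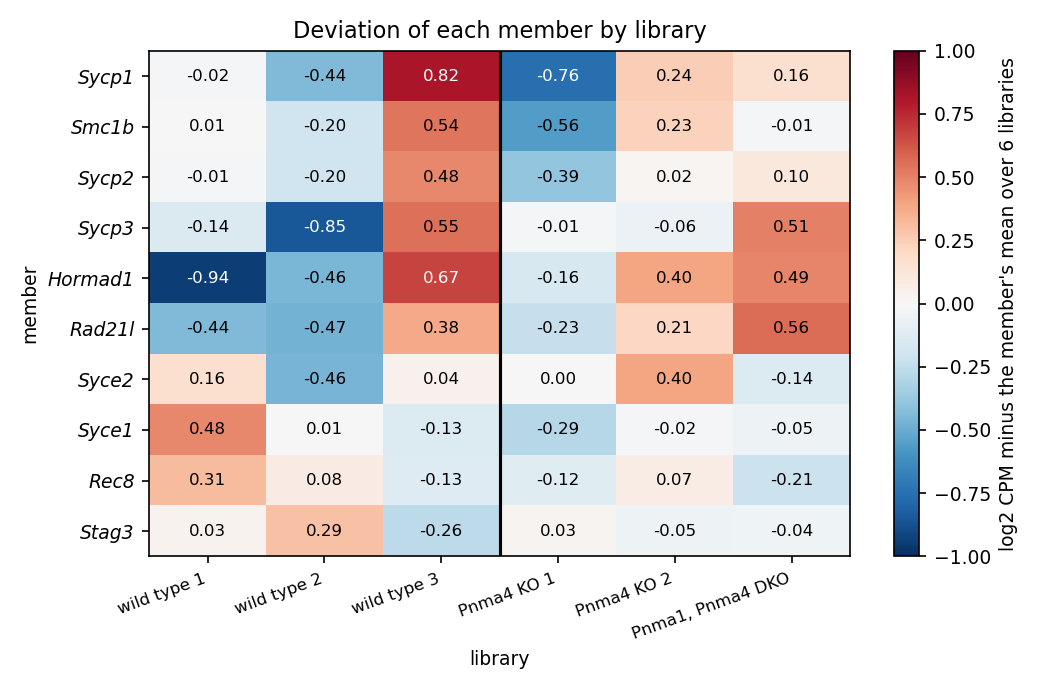
Deviation of each member's log2 CPM from its own mean over the 6 libraries, by library, with wild type left of the black line. The column of wild-type replicate 3 holds values from −0.26 for Stag3 to 0.82 for Sycp1, and no row separates the groups.

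Other measures of wild-type replicate 3 are as follows. It had the lowest summed level of elongating spermatid markers (1641 CPM over 9 genes, against 2000 and 2180 CPM in the other wild-type libraries and 1923 to 2190 CPM without PNMA4) and of round spermatid markers (228 CPM over 10 genes, against 245 to 297 CPM in the other 5 libraries). Among the wild-type libraries, Prm1 and Tnp1 of the first list were instead highest in replicate 3, and its other markers were lowest. Prm1 stood at 71.9 CPM there, against 51.5 and 30.4 CPM. Of the second list, Txndc8 and Catsper3 were highest there, Acrv1, Spaca1 and Catsper1 lay between, and the others were lowest. Of 12 further spermatocyte markers the sum was 1048 CPM there, 1208 and 1280 CPM in the other wild-type libraries, and 1086, 1068 and 972 CPM without PNMA4. Most of that sum came from Hspa2 (554 CPM in wild-type replicate 3, against 639 and 737 CPM in the other wild-type libraries) and Piwil1 (347 CPM, against 415 and 400 CPM). Tex101, Ovol2, Ccna1 and Msh4 were also lowest of the wild-type libraries in replicate 3, Msh4 by little. By contrast, Spo11, Meiob, Ccnb3, Pou5f2 and, by little, Dmc1 were highest of the wild-type libraries there, and Prdm9 lay between. Spo11 stood at 20.3 CPM in wild-type replicate 3, against 15.0 CPM in each of the other wild-type libraries, and Meiob at 11.4 CPM, against 3.42 and 5.76 CPM. All single markers given here were named after their values were seen. None of the markers in these 3 lists was at 0 in all libraries. The part of these measures in the levels of the members was not tested.

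Because Smc1b, Sycp1 and Sycp2 ranked libraries alike and Stag3 did not, the DNA just before their start sites is shown for comparison, 250 bases each from RefSeq on GRCm38.p6, with the last base next to the start site. Capitals mark GCGGGA or its reverse complement TCCCGC, the core that E2F factors bind, and CACGTG, the E-box that MAX-containing dimers bind. E2F6 and MGA with MAX are known to keep meiotic genes silent in somatic mouse cells.
Smc1b (chr15:85131958-85132207, minus strand): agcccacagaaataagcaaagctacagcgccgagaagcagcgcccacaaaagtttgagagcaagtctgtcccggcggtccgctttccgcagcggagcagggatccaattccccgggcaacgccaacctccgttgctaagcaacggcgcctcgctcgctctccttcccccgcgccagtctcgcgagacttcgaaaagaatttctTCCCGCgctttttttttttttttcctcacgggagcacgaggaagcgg
Sycp1 (chr3:102936101-102936350, minus strand): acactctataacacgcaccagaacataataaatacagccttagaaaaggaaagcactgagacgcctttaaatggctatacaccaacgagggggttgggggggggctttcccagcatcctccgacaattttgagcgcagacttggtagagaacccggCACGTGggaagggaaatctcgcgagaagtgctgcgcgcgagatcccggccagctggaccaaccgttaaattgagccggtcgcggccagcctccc
Sycp2 (chr2:178407659-178407908, minus strand): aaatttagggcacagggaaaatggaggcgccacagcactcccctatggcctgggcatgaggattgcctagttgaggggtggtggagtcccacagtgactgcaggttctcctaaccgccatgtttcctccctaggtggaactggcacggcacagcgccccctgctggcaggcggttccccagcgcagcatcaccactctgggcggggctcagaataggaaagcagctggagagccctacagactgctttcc
Stag3 (chr5:138280259-138280508, plus strand): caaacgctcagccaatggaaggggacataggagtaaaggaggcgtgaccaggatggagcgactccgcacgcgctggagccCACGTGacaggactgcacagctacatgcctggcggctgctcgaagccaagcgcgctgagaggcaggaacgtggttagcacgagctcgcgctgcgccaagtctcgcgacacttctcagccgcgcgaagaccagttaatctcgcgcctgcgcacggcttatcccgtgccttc
The E2F-type letters lie 47 bases before the start site of Smc1b. The E-box lies 94 bases before that of Sycp1 and 170 before that of Stag3, a start inside the gene's annotated span. Sycp2 had neither, which says only that these letters are not in this window. The start used for Sycp2 also lies inside its gene's annotated span, so part of the window is within the gene. Searched on both strands in all 12 windows of the 10 members, GCGGGA occurred for 5 members (Smc1b, Rec8, Sycp3, Syce2 and Hormad1), in 7 of the 12 windows, and in 16.9% of the 32851 RefSeq windows of the same length. CACGTG occurred for 5 members (Stag3, Sycp1, Sycp3, Syce2 and Hormad1), in 6 of the 12 windows, and in 6.02% of all windows. GCGGGA and CACGTG each contain the pair CG. The median over all windows was 6 CG pairs and 52.4% GC. The window of Rad21l, which lies wholly inside its gene's annotated span, held 1 CG pair. The other member windows held from 7 (Sycp2) to 26 (Stag3). The part of base composition in the matches was not tested. The cyclic AMP response element TGACGTCA occurred in 0 member windows (1.55% of all), and CNCCTCAG, a motif of the meiotic initiator STRA8, in 1, that of Syce2 (6.42% of all), where it overlaps the E2F-type letters. These matches describe the sequence, and the counts of RNA do not test them.

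Ratios of counts within a library need no scaling between libraries, and none of 10 such ratios separated the groups. For the switch of stromal antigen subunits, the ratio of Stag3 to Stag1 plus Stag2 was 4.72, 5.65 and 2.22 in the wild-type libraries, against 3.99, 3.23 and 2.82 without PNMA4. Wild-type replicate 3 was lowest of the 6. The ratio of Smc1b to Smc1a was 36.5, 45.7 and 57.2 in the wild-type libraries, against 53.1, 44.4 and 92.1 without PNMA4, on 8 to 46 counts of Smc1a per library. Again the groups overlapped, and the double knockout was highest.

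Among the kleisins, Rec8 over Rad21 was steadier, with 0.574 ± 0.0726 in the wild-type libraries, against 0.535 ± 0.0726 in libraries lacking PNMA4 (SD, n = 3 each). Rec8 over Rad21l was 32.4, 28.3 and 11.9 in the wild-type libraries, against 19.8, 15.8 and 9.78 without PNMA4. Its log2 difference of 0.61 rested on the few counts of Rad21l. For the synaptonemal complex, Sycp1 over Sycp3 was 8.61, 10.6 and 9.45 in the wild-type libraries, against 4.70, 9.72 and 6.16 without PNMA4, so wild-type replicate 3 was not apart in this ratio. Sycp2 over Sycp3 was 14.5, 21.1 and 12.5 in the wild-type libraries, against 10.2, 14.0 and 9.95 without PNMA4. Syce1 over Syce2 was 3.34 ± 0.747 in the wild-type libraries, against 2.49 ± 0.471 in libraries lacking PNMA4 (SD, n = 3 each). The 6 synaptonemal and axis members over the 4 cohesin members gave 0.826 ± 0.238 in the wild-type libraries, against 0.800 ± 0.117 in libraries lacking PNMA4 (SD, n = 3 each). The 10 two-sided exact permutation tests gave p from 0.2 to 1.00 and adjusted p of 0.6 or more, where 0.1 is the smallest p possible. A ratio of counts of 2 genes depends on their lengths, so it is compared between libraries and is not a ratio of molecules.

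**Figure D4:**
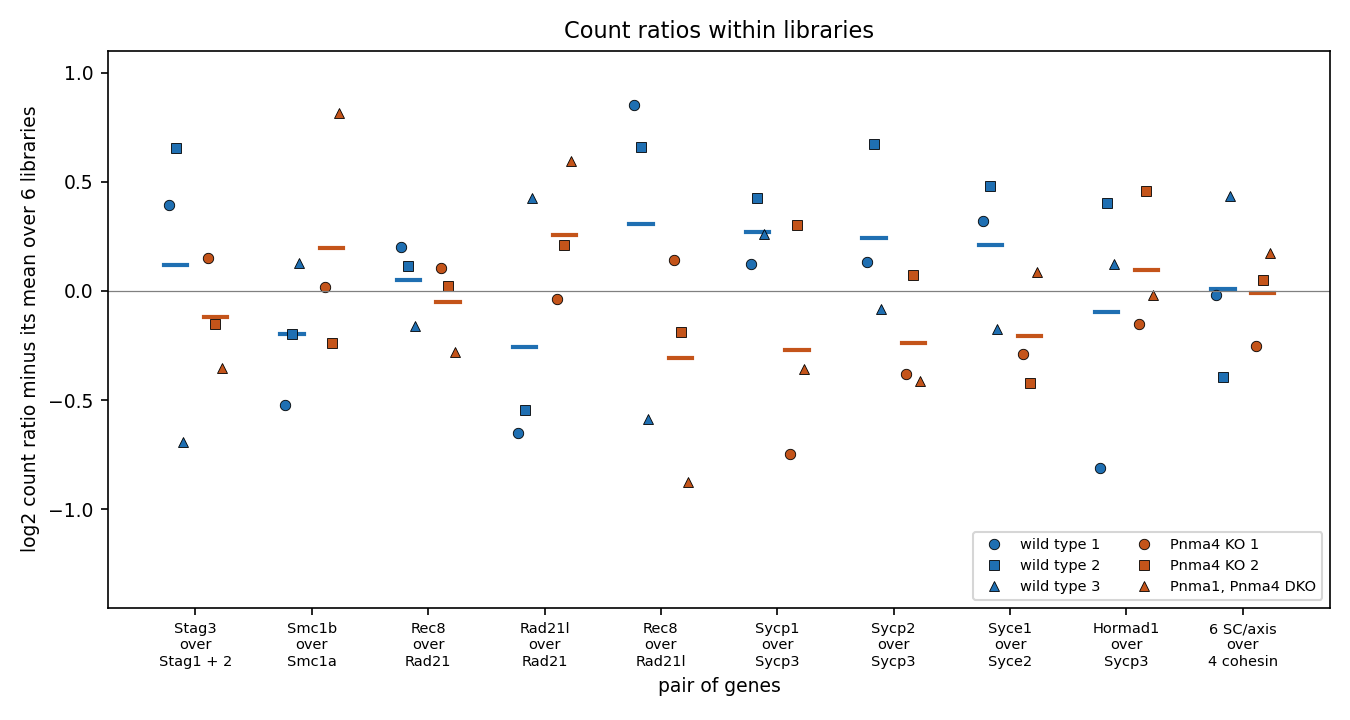
Log2 ratio of counts of 2 genes or gene groups within each library, minus its mean over the 6 libraries (wild type in blue, lacking PNMA4 in orange, horizontal bars for group means, 3 libraries per group). Blue and orange points overlap in all 10 ratios. SC stands for synaptonemal complex.

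As a share of all counts, the 10 members held 0.143% ± 0.0174 in the wild-type libraries, against 0.105% ± 0.0319 in libraries lacking PNMA4 (SD, n = 3 each; two-sided exact permutation p = 0.2). The groups overlapped, with 0.124% to 0.158% in the wild-type libraries, against 0.0769% to 0.140% without PNMA4. Beside this, Rn18s-rs5 and Lars2, which carry ribosomal RNA-like reads, held 28.1% to 42.8% of counts in wild type and 37.4% to 66.3% without PNMA4. Of the counts outside these 2 genes, the members held 0.229% ± 0.0317 in wild type and 0.212% ± 0.0231 where PNMA4 was lacking (exact permutation p = 0.6, n = 3 each).

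Other genes of the pathway were not called either, with 0 called in any of 5 lists (edgeR adjusted p = 1.00 for each gene). The 5 cohesin subunits used in somatic cells had a median log2 fold change of 0.07, with 4 positive. Smc3, the ring subunit common to both forms, stood at 101 ± 19.3 CPM in the wild-type libraries, against 82.6 ± 24.0 CPM without PNMA4, and Stag1 at 64.2 ± 22.0 CPM in wild type and 75.8 ± 12.6 CPM where it was lacking (SD, n = 3 each). Of the 18 genes of cohesin loading, release, cleavage and protection, 17 were tested, with a median of 0.03. Nipbl, the cohesin loader, stood at 912 ± 199 CPM in the wild-type libraries, against 878 ± 154 CPM without PNMA4, and Ppp2r5c, a regulatory subunit of the phosphatase that protects centromeric cohesin, at 426 ± 15.2 CPM in wild type and 447 ± 9.54 CPM where it was lacking (SD, n = 3 each).

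Of 8 further synaptonemal complex and axis genes, 7 were tested, with a median of 0.14. Skp1, a ubiquitin ligase subunit found on the lateral elements in mouse, stood at 51.3 ± 16.7 CPM in the wild-type libraries, against 68.3 ± 10.8 CPM in libraries lacking PNMA4 (SD, n = 3 each). The gene listed as 4930447C04Rik, which encodes the central element protein SIX6OS1, averaged 17.2 ± 9.29 CPM for wild type and 15.0 ± 3.84 CPM where PNMA4 was lacking, and was highest in wild-type replicate 3. The 8 genes of telomere tethering and movement had a median of 0.04 (Sun1, a nuclear envelope protein of that tether, 84.8 ± 11.0 CPM in wild type and 77.2 ± 9.44 CPM where PNMA4 was lacking, and Cdk2, a kinase found at meiotic telomeres, 52.8 ± 7.38 CPM in wild type and 48.4 ± 9.77 CPM where it was lacking). Of 10 regulators of meiotic entry and prophase, 9 were tested, with a median of −0.01 (Tcfl5, a spermatocyte transcription factor, 143 ± 12.6 CPM in wild type and 155 ± 14.6 CPM where PNMA4 was lacking, and Meioc, which prolongs meiotic prophase, 144.5 ± 65.3 CPM in wild type and 151 ± 16.4 CPM where it was lacking). Among the genes of these lists the groups did not overlap for 3, named after their values were seen. Hormad2 was lower in every wild-type library (log2 fold change −0.82), and Meikin and Meiosin were higher in each (0.59 and 0.67), with edgeR adjusted p = 1.00 for all 3, beside the shares of all genes given above.

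The double knockout library can be set against the Pnma4 KO libraries, although it is 1 library and is assumed in the fit to vary like the others. No member was called in this contrast (edgeR, 10 of 13413 genes called, or 0.0746%, and a lowest adjusted p of 0.976 among the members). Sycp3, with the lowest unadjusted p of the members, stood at 27.4 CPM in the double knockout and 19.0 and 18.4 CPM in the Pnma4 KO libraries (log2 fold change 0.55, standard error 0.42). Stag3 stood at 368 CPM in the double knockout and 386.5 and 365 CPM in the Pnma4 KO libraries. The log2 fold changes of the members ran from −0.37 for Syce2 to 0.57 for Rad21l, with 7 positive. Their median was 0.18, and it was −0.01 without Pnma4 KO replicate 1, 0.47 without Pnma4 KO replicate 2 and 0.08 without wild-type replicate 3. The last 2 are over 9 members, as Rad21l was not tested there. In the double knockout, Rn18s-rs5 and Lars2 held 66.3% of counts, against 46.9% and 37.4% in the Pnma4 KO libraries, and its TMM factor was 0.628, against 1.01 and 1.11. This library also had the highest summed level of 9 Leydig cell markers (451 CPM, against 179 to 231 CPM in the Pnma4 KO libraries and 184 to 214 CPM in the wild-type ones) and of 13 Sertoli cell markers (354 CPM, against 174 to 263 CPM in the Pnma4 KO libraries and 171 to 242 CPM in the wild-type ones). Clu gave 190 CPM of that Sertoli cell sum in the double knockout. Sums were also highest there for markers of spermatogonia, peritubular and vascular cells, macrophages and leukocytes, and epididymis. The spermatocyte sum was lowest there, and those of round and elongating spermatids lay between. None of the Leydig and Sertoli cell markers was at 0 in all libraries, and the part of these measures in the members' values was not tested.

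As a description over 6 libraries, the genes outside the set whose log2 CPM followed the members' mean standardised profile most closely were Ift74, an intraflagellar transport gene (Pearson r = 0.997), Rad52, a recombination mediator (r = 0.992), and Ppp1r2-ps3, a pseudogene (r = 0.992). Among 13403 genes, 283 had an r over 0.9, and the points share library depth and scaling. The mean profile does not stand for each member. Between members, r was 0.98 for Sycp1 with Sycp2 but −0.91 for Stag3 with Sycp3. None of the 3 genes outside the set was called between groups (edgeR adjusted p = 1.00 for each).

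Total counts per library ran from 3138657 to 6367930, of which the members held 3097 to 9619. Reads of Moap1 numbered 7, 26 and 27 in the wild-type libraries, against 0 in each of the others, and Pnma1 had 0 in the double knockout, as the labels state. By their spans in RefSeq, 4 of the members overlap a protein-coding gene, Stag3 (Gal3st4 and Gpc2), Smc1b (Fam118a), Sycp3 (Chpt1) and Syce2 (Gcdh). The strand setting of the counting is not given in the sources used here, so reads of the shared parts cannot be assigned with certainty.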

How the data were processed

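RNA was sequenced from PNMA4 immunoprecipitates of 3 wild-type testis lysates and 3 lysates lacking PNMA4. The authors deposited 1 table of raw counts per Ensembl gene, taken here unchanged. The submitters' processing notes name GRCm38, STAR 2.5.2b, bcl2fastq 2.20, featureCounts of Subread and DESeq2, without roles or settings. For strand, multi-mapping and annotation release, settings were not given in the sources used here.

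Counts were tested with edgeR 4.0.16 (quasi-likelihood F test, filterByExpr at minimum count 10 and total 15, TMM factors from 0.628 to 1.29, Benjamini-Hochberg adjustment at 0.05) in R 4.3.3. The filter left 13413 of 57010 IDs. The double knockout was replicate 3 of the group lacking PNMA4, as its title says. A second fit with 3 genotypes gave its contrast with Pnma4 KO. Standard errors were taken as |log2 fold change| over the root of F. Levels (CPM) use TMM-scaled library sizes, which sets the bulk of genes near 0 change. Log2 CPM used a prior count of 2. Ratios and shares were compared with exact permutation tests in scipy 1.17.1. The edgeR fit was checked on simulated counts. Alternatives were DESeq2 1.42.0, limma-voom (limma 3.58.1) with quality weights, 3 other scalings, 2 other filters, a replicate block and each library left out.

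Between any 2 libraries the mean chi-square was 8.60 or more per gene (over genes summing to 20 or more), so no library repeats another. The design text calls the lysates biological replicates. Named genes were the 10 members, the partners in the ratios, and the called genes or else the 2 most abundant of each pathway list, plus 3 genes of most similar profile and Moap1 and Pnma1 as a check of the labels. Hormad2, Meikin, Meiosin and the single spermatocyte and spermatid markers fall outside this rule and were named after their values were seen. Members, lists and tests were chosen with earlier results of these data known. Coordinates, overlaps and sequences are from RefSeq tables of GRCm38.p6. The promoter table matched all 10 members, with 2 windows each for Syce2 and Hormad1. Protein sequences and transcript lengths were not used here.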

Additional observations from a re-analysis of the deposited data

How the results depend on the processing

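Across the alternatives, 0 members passed the test in any setting. Of 137 alternative log2 fold changes of members, 130 kept their direction and 7 changed sign. These were Sycp3 (0.12) and Syce2 (0.055) without scaling factors, Stag3 and Sycp3 without wild-type replicate 2, and Smc1b, Sycp1 and Sycp2 without wild-type replicate 3. With 1 library left out, Stag3 ran from −0.079 to 0.20, Smc1b from −0.012 to 0.41, Sycp1 from −0.16 to 0.52, Sycp2 from −0.021 to 0.34, Sycp3 from −0.65 to 0.11, Rec8 from 0.05 to 0.28, Rad21l from −0.54 to −0.14, Syce1 from 0.044 to 0.38, Syce2 from −0.33 to −0.011 and Hormad1 from −0.94 to −0.071. Without scaling factors the median of the members was 0.42, but that of all tested genes was 0.31, so relative to the bulk the shift was small. At an unadjusted p under 0.05, limma-voom had 1 of 10 members (Hormad1, log2 fold change −0.69, limma adjusted p = 0.913), beside 714 of 13413 genes. At the same threshold edgeR without wild-type replicate 3 had 2 of 9 members, beside 1321 of 13310 genes.

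The count of all genes called was 31 with no filter, 2 with a minimum count of 50, and 8 to 18 with 1 library left out, the last without the double knockout. In the contrast of the double knockout with Pnma4 KO, 16 genes were called by DESeq2, 70 by limma-voom, 201 without scaling factors, 31 with no filter, and 10 to 35 with 1 library left out (35 without wild-type replicate 3, 22 without wild-type replicate 2 and 18 without replicate 1 lacking PNMA4). Without scaling factors the median of the members in that contrast was −0.58, against 0.18 with them. Dropping the factors moves all genes there, as the TMM factor was 0.628 in the double knockout and 1.01 and 1.11 in Pnma4 KO. The median of all genes was not taken in that setting, so these values show no change particular to the members. Groups share replicate numbers, but deviations of same-numbered libraries correlated at 0.04, −0.06 and 0.08, so the numbers were not taken as pairs. The replicate block called 7 genes and 0 members, with a median of 0.11 over the members. The 78 alternative values of ratios and of the share stayed within 1 SD of libraries of the main value, and their tests cannot reach p under 0.05. For all but the share outside Rn18s-rs5 and Lars2, staying within 1 SD was fixed in advance. Leaving out 1 of 3 libraries in a group cannot shift the difference that far, and the replicate block does not change it. No conclusion is drawn from this. With 1 library left out, the sign changed for Stag3 over Stag1 plus Stag2, Rec8 over Rad21, Hormad1 over Sycp3, and synaptonemal over cohesin members. Rad21l was not tested with a minimum count of 50, without wild-type replicate 3 or without replicate 2 lacking PNMA4. Depth limits Rad21l, with at most 17 counts in a library.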
